A study of Mus musculus with 6 samples.

Results

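Genes that act in germ cells and in meiosis were followed in J1 mouse embryonic stem cells in which receptors for Nodal, activin and TGF-beta were inhibited. The set held 41 listed genes out of 20645 named genes on the array. They were chosen by name, with earlier results of these data known. Of the 41 genes, 40 had at least 1 probe by RefSeq accession (46 probes in all). Of these, 35 had a signal that the scanner software called well above background on 3 or more of the 6 arrays, and these were tested among 25899 features. The 35 covered germ cell regulators, piRNA factors, meiotic chromosome proteins, recombination proteins and 3 other germ cell proteins.

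Of the 6 arrays, 3 held RNA of cells given the solvent DMSO and 3 that of cells given 3 µM SB431542, all after 24 h. SB431542 inhibits the receptor kinases ALK4, ALK5 and ALK7, through which those ligands signal. Both groups were the J1 line (strain 129S4/SvJae, inner cell mass origin, bought from a cell bank), adapted to gelatin, with serum replacement and 1000 U/ml of LIF, a cytokine that holds stem cells in self-renewal. A single line was studied. The labels leave it unsaid whether a replicate was a culture of its own, and every p-value below therefore takes its error from array-to-array spread that may be technical alone.

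Germ cells arise from the epiblast, where BMP signals switch on a small group of regulators, and they later divide by meiosis, in which homologous chromosomes pair along a protein axis, break, recombine and separate. In the male germline a class of small RNAs bound by PIWI proteins, the piRNAs, silences transposons. Many of these genes are silent in somatic cells through promoter DNA methylation and through a Polycomb complex with E2F6, MGA and L3MBTL2. That complex is known to keep germline genes silent in stem cells as well. Embryonic stem cells, with little methylation at many of these genes, are known to transcribe part of the set.

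All 9 stem cell markers examined passed the same detection rule, and 4 of them fell, Tdgf1, Dppa5a, Utf1 and Fgf4 (44.4% changed, against 12.6% of all features). Pou5f1, Sox2, Nanog, Zfp42 and Esrrb did not pass an adjusted p of 0.05 (limma adjusted p from 0.244 to 0.844). The summed linear signal, relative to the array's 75th percentile, was 665 to 689 in DMSO and 491 to 543 in SB431542. Most of that sum was Dppa5a, so it does not describe the class. No spot was saturated, and 63.9% to 66.2% of spots per array were well above background. Pairs of DMSO arrays correlated at 0.997 to 0.998 and pairs of SB431542 arrays at 0.995 to 0.997 over features, which are not independent replicates. SB431542 replicate 3 was hybridised on slide 2 and had its own scan, while the other 5 arrays shared slide 1. On slide 1 the groups occupied separate positions, so position and treatment cannot be told apart there.

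The germline set was widely detected. Of the 40 genes with a probe, 35 (87.5%) passed on 3 or more arrays, against 75.8% of the 20645 named genes. On all 6 arrays the figures were 34 members (85.0%) and 71.9%. Each DMSO array detected 35 members, and the SB431542 arrays detected 35, 34 and 34, the difference being Tdrd9. Nanos2, Tdrd1, Tdrd6, Sycp2 and Spo11 passed it on 0 of 6 arrays and were not tested, and Piwil4 had no matched probe.

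More of the tested members were lower than higher with the inhibitor. With limma and Benjamini-Hochberg adjustment over all 25899 features, 9 of 35 fell, 4 rose and 22 did not pass an adjusted p of 0.05. Over all features 7.39% fell and 5.19% rose, 12.6% in all, against 25.7%, 11.4% and 37.1% of the tested members. At an unadjusted p under 0.05 there were 21 members (60.0%), against 27.6% of all features, and 65.7% of members had a negative change, against 45.8%. Among genes with a symbol 15.5% changed. The members were listed with earlier results of these data known, so the shares in this paragraph describe the list and do not test it. The groups did not overlap for 24 of the 35 members (68.6%), 16 of them lower and 8 higher, against 36.0% of all features, 17.3% lower and 18.6% higher. The median log2 change of the tested members was -0.15, against 0.02 over all features, and 1 change exceeded 2-fold, that of Msh4 (2.14-fold). The plot of each array's level shows the 13 changed members with asterisks. RNA came from whole cultures, so fewer cells with a transcript and less transcript per cell cannot be told apart.

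**Figure D1:**
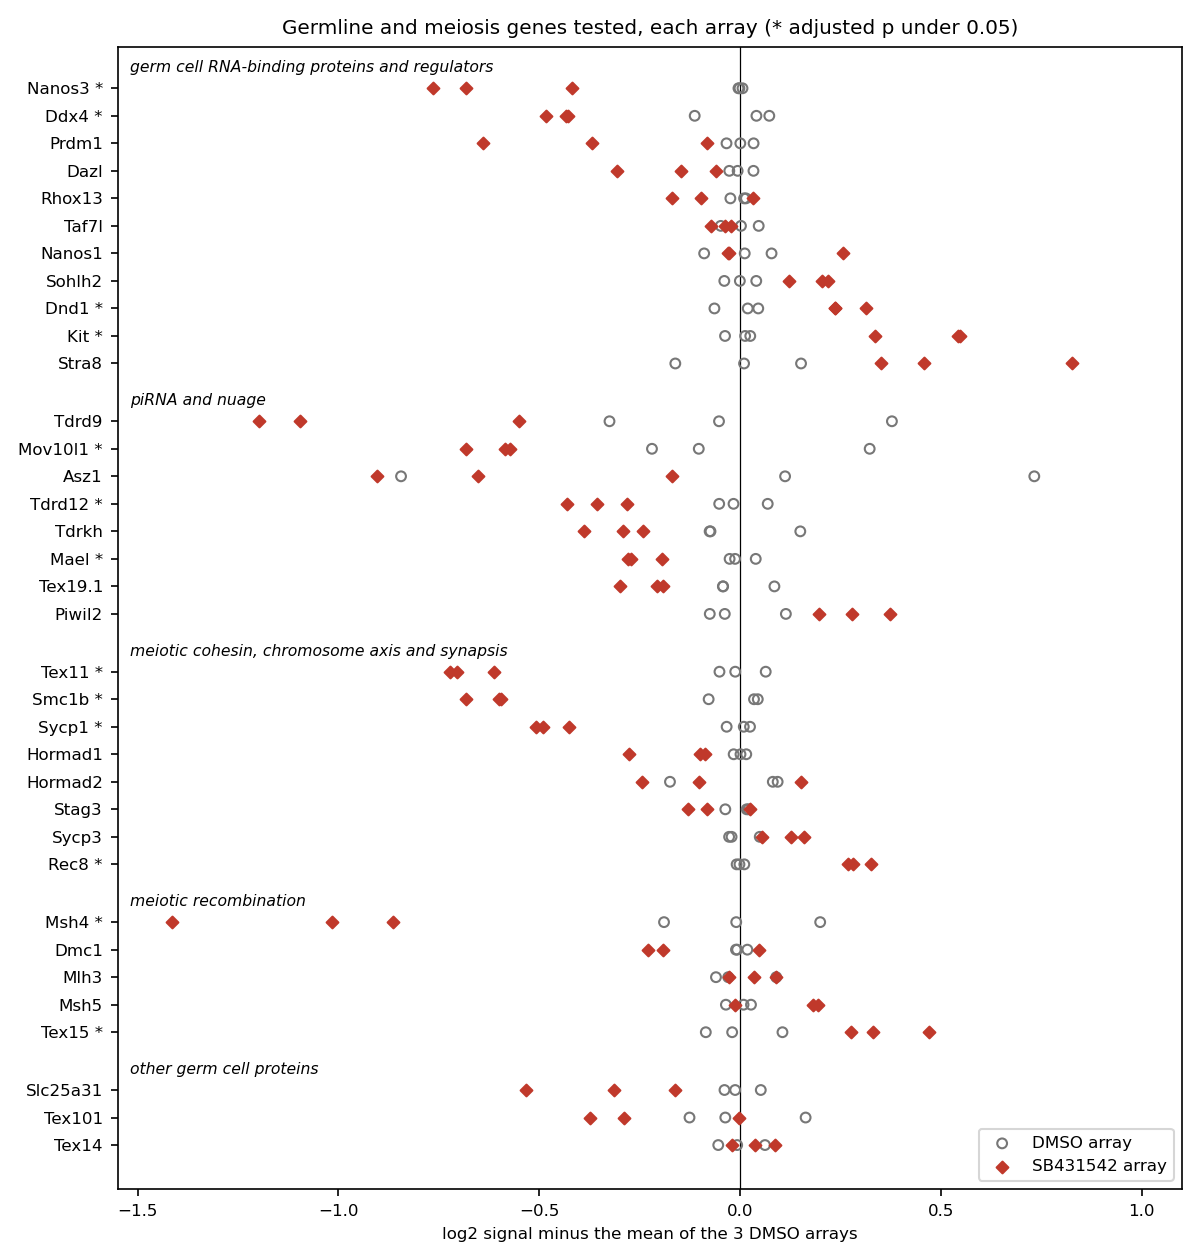
Log2 signal of each tested member on each array, given as the difference from the mean of the 3 DMSO arrays (x axis), with genes in rows by role. Open circles are DMSO arrays, diamonds SB431542 arrays, and an asterisk marks an adjusted p under 0.05. Diamonds lie to the left of every circle for 16 members and to the right for 8.

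Markers of other cell types were measured beside these changes. Of all features 12.6% changed, 7.39% lower and 5.19% higher. Of the tested markers 100% changed for 2-cell-like cells, 40.0% for fibroblasts, 33.3% for oocytes and 16.7% for primitive endoderm. The share was 0.0% for spermatids and for Sertoli and granulosa cells. All 5 tested markers of 2-cell-like cells fell. Summed signals are linear and relative to the array's 75th percentile. That of the 2-cell-like markers ran from 5.99 to 6.47 with DMSO and from 2.96 to 3.29 with SB431542. Of 5 tested fibroblast markers 2 fell (Col1a2 and Dcn), with Postn below detection and sums of 2.18 to 2.34 and 1.76 to 1.96. None of 7 spermatid markers passed (1 at an unadjusted p under 0.05), with sums of 0.99 to 1.08 and 0.97 to 1.07, and Acrv1 was not well above background on the 6 arrays. Of 3 tested oocyte markers 1 fell, Gdf9 (a call lost without any single array, limma adjusted p from 0.0592 to 0.106), and Figla changed by -0.39 ± 0.32. The sum of all 8 ran from 1.59 to 2.32 and from 2.94 to 3.31, most of it Zp3 (0.74 ± 0.19, limma adjusted p = 0.0612), so it does not describe the class. Zp2 and Oosp1 were below detection on every array. None of 3 Sertoli and granulosa markers passed (0 at an unadjusted p under 0.05), with sums of 50.2 to 60.7 and 44.2 to 59.1, and Sox9, Amh and Fshr were likewise not well above background. Most of that sum was Foxl2 (mean log2 level 5.45 with DMSO and 5.41 with SB431542), so it does not describe the class either. Of 6 primitive endoderm markers 1 rose (Pdgfra), with sums of 0.85 to 0.92 and 0.90 to 1.02. The part of these cells, and of the stem cell markers that fell, in the changes of the germline set was not tested.

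Promoter windows of changed members are shown with 2 motifs. The choice of the 41 genes did not use them, but the choice of windows to show did. Each window is the 250 bases before an annotated start, from RefSeq with build GRCm38.p6, which held windows for 35 of the 41 genes (42 windows). Capitals mark the E2F core TCCCGC and the E-box CACGTG, searched on both strands. E2F6 is known to bind the first and MGA with MAX the second. The motifs were picked for that, with the values known. The 5 windows are those of Smc1b and Sycp1, which fell under every alternative tried, of Ddx4 and Mael, the fallen members that hold both motifs, and of Rec8, which rose. They lie, in that order, at chr15:85131958-85132207 (- strand), chr3:102936101-102936350 (- strand), chr13:112652311-112652560 (- strand), chr1:166238745-166238994 (- strand) and chr14:55617916-55618165 (+ strand).
Smc1b: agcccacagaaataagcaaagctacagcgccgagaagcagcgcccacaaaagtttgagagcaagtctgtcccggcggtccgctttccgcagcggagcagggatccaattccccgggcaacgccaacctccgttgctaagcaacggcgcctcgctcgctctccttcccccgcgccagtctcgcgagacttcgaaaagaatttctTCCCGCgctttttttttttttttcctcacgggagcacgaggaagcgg
Sycp1: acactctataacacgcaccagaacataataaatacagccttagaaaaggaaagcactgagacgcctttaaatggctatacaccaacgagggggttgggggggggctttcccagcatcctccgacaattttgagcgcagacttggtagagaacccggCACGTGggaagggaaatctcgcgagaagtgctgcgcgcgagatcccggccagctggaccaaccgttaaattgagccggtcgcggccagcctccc
Ddx4: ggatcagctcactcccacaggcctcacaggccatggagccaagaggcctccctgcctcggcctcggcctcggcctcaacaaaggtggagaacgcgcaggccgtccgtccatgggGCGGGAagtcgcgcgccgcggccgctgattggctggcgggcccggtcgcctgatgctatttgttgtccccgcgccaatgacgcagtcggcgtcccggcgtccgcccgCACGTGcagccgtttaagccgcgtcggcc
Mael: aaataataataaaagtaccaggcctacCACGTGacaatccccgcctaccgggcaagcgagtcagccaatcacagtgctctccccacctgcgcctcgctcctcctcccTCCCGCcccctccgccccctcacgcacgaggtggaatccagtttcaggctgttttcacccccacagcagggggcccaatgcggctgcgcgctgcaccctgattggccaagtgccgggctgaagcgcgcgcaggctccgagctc
Rec8: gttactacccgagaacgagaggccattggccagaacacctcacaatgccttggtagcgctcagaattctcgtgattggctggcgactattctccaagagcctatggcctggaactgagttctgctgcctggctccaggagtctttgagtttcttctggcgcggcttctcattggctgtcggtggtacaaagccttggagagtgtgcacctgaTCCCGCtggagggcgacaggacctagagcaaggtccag
The capitals do not overlap in these windows, and Smc1b and Rec8 hold the E2F core alone while Sycp1 holds the E-box alone.

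Over the 42 member windows, 31.0% held the E2F core and 31.0% the E-box, against 16.9% and 6.02% of all 32851 windows. Both motifs stood together in 11.9% of member windows and in 1.45% of all. Each motif contains CG, and the median number of CG dinucleotides was 15 over member windows, against 6 over all. The shares take no account of that difference. Among the members that fell, 3 of 8 genes with a window held the E2F core and 4 of 8 the E-box. Kit and Rec8, the risen members with a window counted here, both held the E2F core and neither held the E-box. Of the 21 genes tested without passing the threshold, 6 held each motif. The median number of CG dinucleotides was 17 in windows of members that fell and 17 in those that rose. It was 15 in the tested remainder and 7 in members not tested, Piwil4 without a probe among them, against 6 over all windows. A Smad palindrome (GTCTAGAC) and a Foxh1 motif (AATCCACA) were searched as well. The palindrome stood in 0 of the 42 member windows, against 0.167% of all. The Foxh1 motif stood in 1 member window (2.38%, against 0.718% of all), that of Tdrd9. Windows of members that fell or rose held neither. Windows of 1 gene overlap, and these counts are descriptions of letters, not of binding.

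Levels below are log2 of the processed signal relative to the array's 75th percentile, listed for replicates 1, 2 and 3 in that order. They are not compared between genes, since probes differ in brightness. Log2 changes are SB431542 minus DMSO with the standard error of the limma fit, 3 arrays per group.

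Among germ cell regulators, 2 of 11 tested fell and 2 rose (36.4% changed, against 12.6% of all features). Nanos3, an RNA-binding translational repressor needed for survival of primordial germ cells, lay at 1.69, 1.69 and 1.70 on the DMSO arrays and at 0.92, 1.01 and 1.27 on the SB431542 arrays. Every SB431542 array was lower, replicate 3 the least so. Its log2 change was -0.62 ± 0.10 (limma adjusted p = 0.0125), and the adjusted p was 0.0533, 0.0566 and 0.0558 without DMSO replicate 1, 2 and 3. Ddx4, the germ cell RNA helicase also called Vasa, lay at 1.05, 1.24 and 1.21 with DMSO and at 0.74, 0.73 and 0.68 with SB431542. Its treated arrays sat close together below all controls. The log2 change was -0.45 ± 0.07 (limma adjusted p = 0.0109, and 0.0517 and 0.0542 without DMSO replicates 2 and 3).

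Kit, the receptor tyrosine kinase through which germ cells receive stem cell factor, lay at 3.01, 2.96 and 3.02 with DMSO and at 3.54, 3.54 and 3.33 with SB431542. All treated arrays were above all controls. It rose by 0.48 ± 0.07 on the log2 scale (limma adjusted p = 0.0129), and the adjusted p was 0.0533, 0.0627 and 0.0534 without DMSO replicate 1, 2 and 3. Dnd1, an RNA-binding protein of primordial germ cells, lay at 1.12, 1.04 and 1.15 with DMSO and at 1.34, 1.34 and 1.42 with SB431542. The groups were apart but the step was small, 0.26 ± 0.06 (limma adjusted p = 0.0356). Leaving out any single array ended that call, with adjusted p from 0.063 (without SB431542 replicate 3) to 0.133 (without DMSO replicate 2).

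The other 7 regulators did not pass the test. Stra8, the retinoic acid-induced gatekeeper of meiotic entry, lay at 6.16, 6.02 and 5.85 with DMSO and 6.83, 6.36 and 6.47 with SB431542. The groups did not overlap, yet the arrays were spread, and the change of 0.55 ± 0.15 missed the threshold (limma adjusted p = 0.0662, 0.0251 under normexp background correction). Prdm1, the repressor that starts germ cell specification, lay at -1.34, -1.30 and -1.37 with DMSO and -1.98, -1.71 and -1.42 with SB431542. Replicate 3 sat just below the controls and replicate 1 farthest from them, and the change was -0.36 ± 0.14 (limma adjusted p = 0.162, 0.0362 without SB431542 replicate 3). It was -0.21 under normexp.

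Dazl, a translational regulator of germ cells, lay at 0.90, 0.83 and 0.86 with DMSO and 0.71, 0.55 and 0.80 with SB431542, a change of -0.17 ± 0.08 (limma adjusted p = 0.209). Sohlh2, a helix-loop-helix factor gene, lay at 1.97, 1.93 and 1.89 with DMSO and 2.05, 2.15 and 2.14 with SB431542, a change of 0.18 ± 0.05 (limma adjusted p = 0.0923). For Dazl every treated array was lower and for Sohlh2 every treated array was higher. Nanos1, which belongs to the same RNA-binding family as Nanos3, lay at -2.58, -2.41 and -2.48 with DMSO and -2.52, -2.52 and -2.23 with SB431542, and its change of 0.07 ± 0.10 (limma adjusted p = 0.702) rested on 1 high array, SB431542 replicate 3, without which it was -0.029. The X-linked homeobox gene Rhox13 lay at 2.67, 2.70 and 2.71 with DMSO and 2.60, 2.73 and 2.53 with SB431542 (-0.08 ± 0.07, limma adjusted p = 0.496). Taf7l, which encodes a germ cell form of a TFIID subunit, lay at 2.53, 2.57 and 2.48 with DMSO and 2.50, 2.45 and 2.49 with SB431542 (-0.04 ± 0.05, limma adjusted p = 0.62). In Nanos1, Rhox13 and Taf7l the groups overlapped.

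Of 8 tested piRNA and nuage genes, 3 fell (37.5%, against 7.39% of all features) and 0 rose by limma (against 5.19%), with 7 at an unadjusted p under 0.05 (87.5%, against 27.6%). Nuage is the granule in which germ cells process piRNAs. Tdrd12, a Tudor domain protein of piRNA production, lay at 1.46, 1.49 and 1.58 with DMSO and at 1.15, 1.23 and 1.08 with SB431542. The groups were apart, and the log2 change was -0.36 ± 0.06 (limma adjusted p = 0.0208). Its adjusted p was 0.0586, 0.0803 and 0.0848 without DMSO replicate 1, 2 and 3 and 0.0583 without SB431542 replicate 1. Mael, a protein of the piRNA pathway in germ cell granules, lay at 2.74, 2.68 and 2.67 with DMSO and at 2.42, 2.50 and 2.42 with SB431542. Both groups were tight and apart, with a log2 change of -0.25 ± 0.05 (limma adjusted p = 0.0343) that no longer passed when any single array was left out (adjusted p from 0.0545 without SB431542 replicate 2 to 0.125 without DMSO replicate 1).

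Mov10l1, the helicase that feeds precursor RNA into the piRNA pathway, lay at -2.51, -2.39 and -1.97 with DMSO and at -2.87, -2.86 and -2.97 with SB431542. DMSO replicate 3 was the highest and the treated arrays were close together. Its log2 change of -0.61 ± 0.15 just passed (limma adjusted p = 0.0464), and it was -0.37 under normexp background correction. The call was lost without DMSO replicates 1 and 2 (adjusted p = 0.0544 and 0.107) and without SB431542 replicate 1, 2 or 3 (0.0974, 0.103 and 0.109).

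The change was negative in 7 of the 8 piRNA genes (87.5%, against 45.8% of all features), but 5 of the 8 did not pass, and under normexp that of Tdrkh was near 0. Tdrd9, a Tudor domain helicase, lay at -4.99, -4.29 and -4.72 with DMSO and -5.22, -5.76 and -5.87 with SB431542, where it was well above background on 1 of 3 arrays. All treated arrays were lower, and the log2 change was -0.95 ± 0.24 (limma adjusted p = 0.056, 0.0399 without SB431542 replicate 1). Under normexp the change was -0.18. Tdrkh, which tethers PIWI proteins to mitochondria, lay at -3.72, -3.73 and -3.50 with DMSO and -3.94, -4.04 and -3.89 with SB431542, a change of -0.31 ± 0.08 (limma adjusted p = 0.0691), but -0.026 under normexp (adjusted p = 0.815). Tex19.1, which acts in germ cells and stem cells against transposons, lay at 5.44, 5.31 and 5.31 with DMSO and 5.17, 5.15 and 5.06 with SB431542, a change of -0.23 ± 0.06 (limma adjusted p = 0.0694, 0.0223 under normexp). In Tdrkh and Tex19.1 every treated array was lower than every control. Tex19.1 has a close paralog, Tex19.2 (0.08 ± 0.07), so its probe may share signal.

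Asz1, of the outer mitochondrial membrane in germ cells, lay at -3.45, -4.07 and -5.03 with DMSO and -4.36, -5.09 and -4.84 with SB431542. The controls alone spanned more than the difference of -0.57 ± 0.42 (limma adjusted p = 0.427), which was -0.208 without DMSO replicate 1, -0.996 without DMSO replicate 3 and -0.127 under normexp. Piwil2, the PIWI protein also called MILI, lay at -0.60, -0.76 and -0.79 with DMSO and -0.52, -0.44 and -0.35 with SB431542. It was the single gene of the 8 with a positive change, 0.28 ± 0.08 (limma adjusted p = 0.0708), with all treated arrays above all controls.

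Genes of the meiotic chromosome axis and its cohesin moved both ways. Of 8 tested, 3 fell, 1 rose and 4 did not pass (50.0% changed, against 12.6% of all features). Tex11, an X-linked protein of synapsis and crossover formation, lay at 0.28, 0.35 and 0.24 with DMSO and at -0.41, -0.32 and -0.43 with SB431542. Controls were all above and treated arrays all below the array's 75th percentile. The log2 change was -0.68 ± 0.06 (limma adjusted p = 0.002), with an adjusted p under the threshold without any single array. Smc1b, the meiotic form of a cohesin subunit, lay at 2.12, 2.23 and 2.24 with DMSO and at 1.6, 1.59 and 1.51 with SB431542. Its groups were far apart for their spread, with a log2 change of -0.63 ± 0.06 (limma adjusted p = 0.00276).

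Sycp1, which forms the transverse filaments that zip paired chromosomes together, lay at -0.82, -0.87 and -0.83 with DMSO and at -1.27, -1.33 and -1.35 with SB431542. Both groups were tight, and the log2 change was -0.47 ± 0.05 (limma adjusted p = 0.00409). It was -0.32 under normexp background correction (limma adjusted p = 0.00889). Rec8, the kleisin subunit of meiotic cohesin, moved in the opposite direction, from 3.90, 3.89 and 3.88 with DMSO to 4.21, 4.17 and 4.16 with SB431542. No treated array came near the controls. The rise was 0.29 ± 0.05 (limma adjusted p = 0.0146), with an adjusted p of 0.0609, 0.0728 and 0.0729 without DMSO replicate 1, 2 and 3.

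Stag3, the cohesin partner of these subunits, lay at 2.20, 2.14 and 2.19 with DMSO and 2.05, 2.20 and 2.09 with SB431542, a change of -0.06 ± 0.06 (limma adjusted p = 0.551). Of 3 meiotic cohesin genes, then, Smc1b fell, Rec8 rose and Stag3 did not pass. Sycp3, a filament protein of the axis, lay at 1.43, 1.36 and 1.36 with DMSO and 1.51, 1.54 and 1.44 with SB431542 (0.11 ± 0.06, limma adjusted p = 0.251). Hormad1, which marks unpaired axes, lay at 2.36, 2.34 and 2.32 with DMSO and 2.24, 2.06 and 2.25 with SB431542 (-0.15 ± 0.07, limma adjusted p = 0.207). Its relative Hormad2 lay at -2.60, -2.87 and -2.62 with DMSO and -2.54, -2.80 and -2.94 with SB431542 (-0.06 ± 0.13, limma adjusted p = 0.777). The treated arrays of Sycp3 were all higher and those of Hormad1 all lower than the controls, while those of Stag3 and Hormad2 overlapped them.

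Of 5 recombination genes tested, 1 fell and 1 rose (40.0% changed, against 12.6% of all features). Msh4, which with Msh5 forms the clamp that stabilises crossover intermediates, lay at -3.47, -3.65 and -3.26 with DMSO and at -4.48, -4.87 and -4.32 with SB431542. The groups were apart at low signal. The log2 change was -1.10 ± 0.17 (limma adjusted p = 0.0121, and 0.051 without DMSO replicate 1), but -0.32 under normexp background correction and -0.72 with the mean of the gene's probes. Its partner Msh5 lay at -2.05, -2.09 and -2.03 with DMSO and -2.07, -1.86 and -1.87 with SB431542, a change of 0.12 ± 0.07 (limma adjusted p = 0.34) with overlapping groups. Tex15, a protein of meiotic repair and transposon silencing, lay at -0.75, -0.82 and -0.63 with DMSO and at -0.40, -0.26 and -0.46 with SB431542. All treated arrays were higher, by 0.36 ± 0.08 (limma adjusted p = 0.0383), and the call was lost without DMSO replicate 1, 2 or 3 (0.126, 0.133 and 0.0646) and without SB431542 replicate 1 or 2 (0.0824 and 0.091). Dmc1, the meiotic strand exchange protein, lay at 0.91, 0.88 and 0.88 with DMSO and 0.94, 0.66 and 0.70 with SB431542 (-0.12 ± 0.08, limma adjusted p = 0.397), and Mlh3, whose protein acts at crossovers, lay at -0.27, -0.24 and -0.12 with DMSO and -0.17, -0.12 and -0.23 with SB431542 (0.03 ± 0.07, limma adjusted p = 0.779). In both the groups overlapped.

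None of the 3 other germ cell genes passed limma's test, with 1 at an unadjusted p under 0.05. Slc25a31, the testis ADP/ATP carrier, lay at -1.64, -1.67 and -1.58 with DMSO and -1.94, -2.16 and -1.79 with SB431542. Every treated array was lower, with a change of -0.34 ± 0.10 (limma adjusted p = 0.092, 0.041 without SB431542 replicate 3) that was -0.18 under normexp. The surface glycoprotein gene Tex101 lay at -2.07, -2.36 and -2.27 with DMSO and -2.24, -2.52 and -2.61 with SB431542 (-0.22 ± 0.12, limma adjusted p = 0.308), and Tex14, needed for the bridges between germ cells, at 2.65, 2.77 and 2.70 with DMSO and 2.80, 2.75 and 2.69 with SB431542 (0.03 ± 0.06, limma adjusted p = 0.738). Both overlapped between groups.

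Several genes had more than 1 probe, and these did not always give the same change. The second Msh4 probe, also well above background on all arrays, changed by -0.34 ± 0.15 against -1.10 for the brighter one. The dimmer Tex11 probe changed by -0.51 ± 0.32, from -3.88, -3.90 and -3.86 with DMSO to -5.13, -4.17 and -3.86 with SB431542, and the mean of both probes changed by -0.59 (limma adjusted p = 0.0732). For Hormad1 the dimmer probe changed by -0.28 ± 0.05 (limma adjusted p = 0.0241 over all probes) while the brighter one did not pass, and their mean did (0.0486). The 3 Dmc1 probes changed by -0.12, -0.03 and -0.06. The second Tex15 probe was below detection on the 6 arrays, so the rise of Tex15 rests on 1 probe. The plot of single probes shows these pairs.

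**Figure D2:**
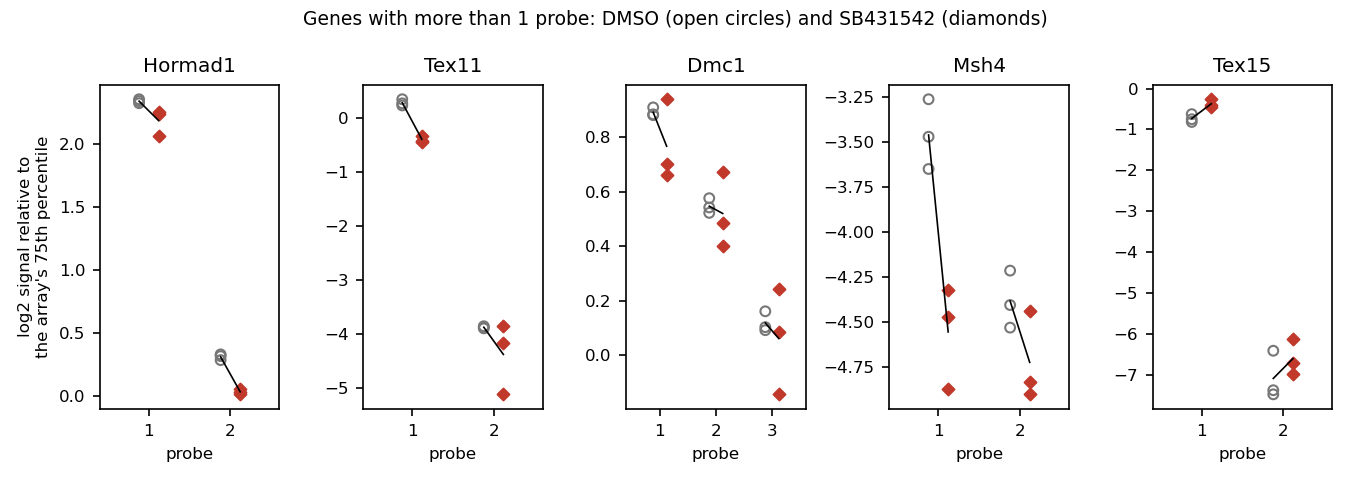
Log2 signal relative to the array's 75th percentile (y axis, own scale per gene) for each probe of the 5 genes with more than 1 probe, brightest first. Open circles are the 3 DMSO arrays, diamonds the 3 SB431542 arrays, and lines join group means. The probes of Msh4 differ in slope, and the dimmer Tex11 probe is spread with SB431542.

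Every one of the 13 changed members kept its direction under all 16 alternatives. The fit with slide as a block was the same as that without SB431542 replicate 3. Leaving out an array could not turn a direction, since the groups did not overlap for any of the 13. Several other alternatives reuse the same levels, so the kept direction is mostly no test. In 55 fits a member no longer passed, against 153 in which it still did. Smc1b and Sycp1 passed in all 16 and Tex11 and Msh4 in 15. Kit passed in 12, Dnd1 and Mael in 7. Without SB431542 replicate 3, which leaves slide 1 alone, 10 of the 13 passed. Without DMSO replicate 1, 2 or 3 the numbers were 4, 4 and 5, and over all features the genes lower with SB431542 numbered 1020, 925 and 972 in place of 1913. The plot of changes by setting shows the members ordered by size.

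**Figure D3:**
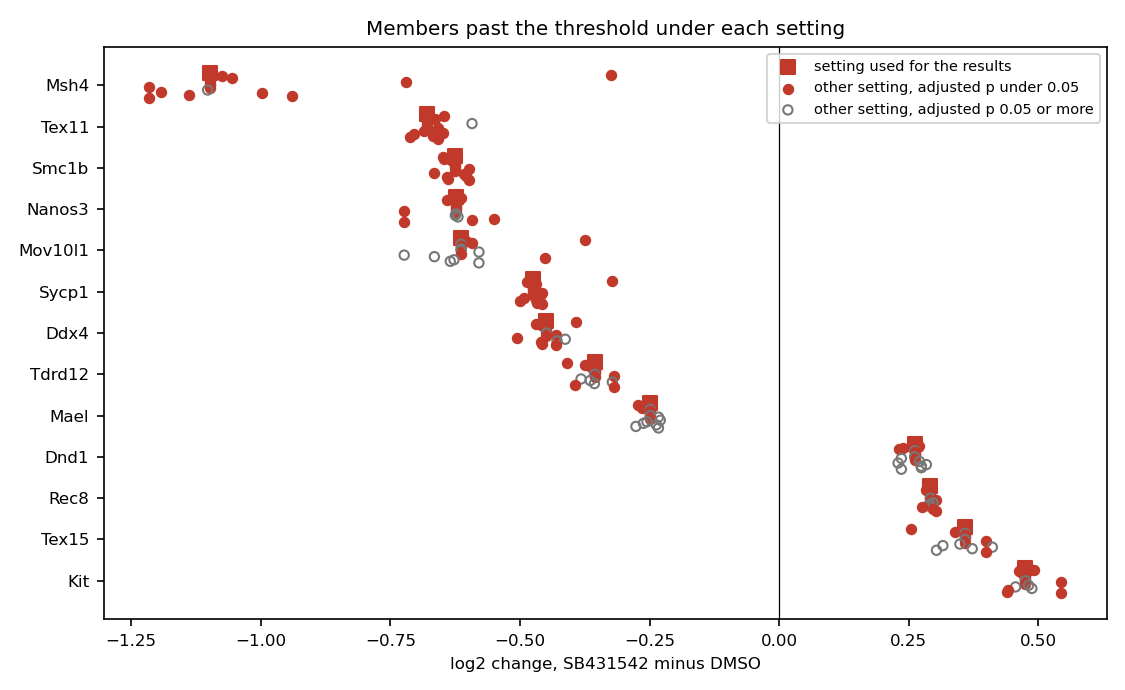
Log2 change (x axis) of the 13 members past the threshold under the setting used for the results (squares) and each alternative (circles). Filled symbols have an adjusted p under 0.05. All symbols of a gene lie on the same side of 0, which those of left-out arrays could not leave, as the groups did not overlap. Msh4 ranges from -1.21 to -0.32.

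Other genes of germ cells and meiosis, 61 in a further list, were examined for the same comparison. The list shares the spermatid markers and part of the oocyte markers given above, so Gdf9 is counted as fallen in both. Of 53 tested, 9 fell, 2 rose and 42 did not pass (20.8% changed, against 12.6% of all features and 15.5% of genes with a symbol), with a median of -0.13. Terb1, which ties telomeres to the nuclear envelope, changed by -1.05 ± 0.06 (limma adjusted p = 0.000594). The single-strand binding protein gene Meiob changed by -0.81 ± 0.08, Tdrd7 by -0.60 ± 0.07 and the histone reader gene Zcwpw1 by -0.47 ± 0.07. Syce1 and Tex12, both of the central element of the synaptonemal complex, changed by -0.41 ± 0.06 and -0.42 ± 0.08. Under normexp the change of Terb1 was -0.37. Dmrt1, a transcription factor of spermatogonia, rose by 0.87 ± 0.07 and Zbtb16, a spermatogonial stem cell factor, by 0.82 ± 0.13 (0.31 under normexp). Terb1, Meiob, Tdrd7 and Dmrt1 passed without any single array. Syce1 lost its call without DMSO replicates 2 and 3 (limma adjusted p = 0.0593 and 0.0537), Zcwpw1 without DMSO replicates 1 and 3 (0.0506 and 0.0559), Zbtb16 without DMSO replicate 2 (0.0577) and Tex12 without any array but DMSO replicate 1 (0.0526 to 0.0977). Tex12 was at -0.18 under normexp (0.124).

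Signals and factors of primordial germ cell formation moved both ways. Of 10 tested, 4 rose and 2 fell (60.0% changed, against 12.6% of all features). Tfap2c, a core regulator of germ cell fate, rose by 1.22 ± 0.05, the inducing ligand gene Bmp4 by 0.98 ± 0.09, Kitl, the ligand of the Kit receptor, by 0.86 ± 0.08 and Dppa3, an early germ cell and naive stem cell marker, by 0.77 ± 0.07. Each passed without any single array, and Kitl rose by 0.35 under normexp. The ligand gene Bmp8b changed by -0.54 ± 0.09 and Ifitm3, a membrane protein gene of early germ cells, by -0.30 ± 0.07. Bmp8b lost its call without DMSO replicate 1, 2 or 3 (limma adjusted p = 0.057, 0.0544 and 0.0587) and was at -0.22 under normexp (0.0729), and Ifitm3 lost its call without any array but SB431542 replicate 3 (0.102 to 0.144). Prdm14 (-0.14 ± 0.06) and Otx2 (-0.21 ± 0.08) did not pass.

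Genes known to keep the germline set silent were also measured, in a list that held the TET enzyme genes Tet1 and Tet2 as well. Of 27 tested, 3 fell and 0 rose by limma (11.1% against 12.6% of all features), with 6 at an unadjusted p under 0.05 (22.2%, against 27.6%), a median of -0.01 and changes from -0.32 to 0.20. The complex subunit genes Yaf2 and Rybp changed by -0.32 ± 0.07 and -0.27 ± 0.06, and Dnmt3l, a cofactor of DNA methyltransferases, by -0.30 ± 0.07. Rybp lost its call without any single array (limma adjusted p from 0.0698 to 0.158), and Yaf2 and Dnmt3l without any array but SB431542 replicate 3 (0.0503 to 0.115 and 0.112 to 0.154). E2f6 (0.03 ± 0.07), Mga (0.00 ± 0.06), L3mbtl2 (-0.04 ± 0.06), Pcgf6 (0.04 ± 0.05) and Dnmt1 (0.06 ± 0.07) did not pass.

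**Figure D4:**
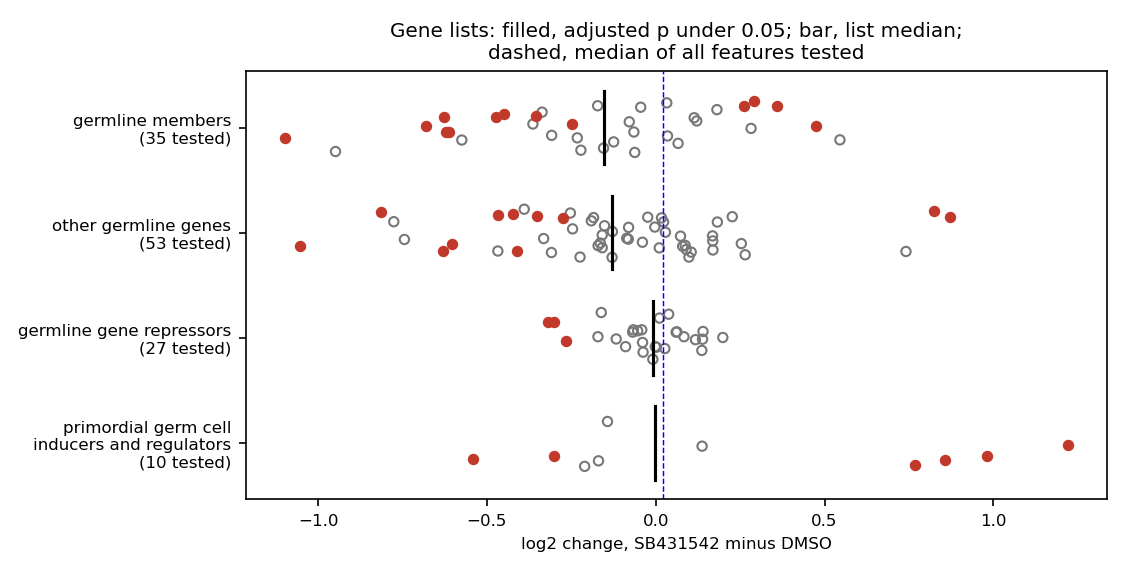
Log2 change (x axis) of each tested gene in the germline set and in the 3 further lists. Filled points have an adjusted p under 0.05, vertical bars are list medians and the dashed line is the median of all features, 0.02. The primordial germ cell list holds rises of 0.77 to 1.22, beyond any rise among the germline members.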

How the data were processed

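Total RNA was labelled with Cy3 and hybridised to 1-colour Agilent arrays, 1 per sample, per the labels. The deposited intensity values are background-subtracted and detrended within each array by Agilent Feature Extraction 10.7, per the file headers and the submitters' processing notes, and its flags for outlier spots and spots well above background are deposited scores of 0 or 1. A table of log2 values deposited by the authors, normalized by a method not given in the sources used here, served as an alternative; its columns correlated with their own arrays at 0.99988 or above, on the same log2 direction, and had medians of 5.18 to 5.19.

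Outlier spots were left out and spots of a probe averaged on the log2 scale, giving 55600 probes. Each array was scaled to the 75th percentile of its probes (453 to 565), and 36184 probes passing the background flag on 3 or more of 6 arrays were kept. RefSeq accessions (GRCm38.p6 gene table) named 27200 probes and 13 carried a symbol; 28387 had none. The brightest probe stood for a gene. The array grid is on mm9, so gene coordinates come only with the promoter windows. Groups were compared with limma 3.58.1 (lmFit, eBayes, two-sided) in R 4.3.3, adjusting p by Benjamini-Hochberg across the 25899 features, and files were read with Python 3.11.15. The steps were tested on simulated data. Alternatives covered background, scaling, filters, probe choice, blocks and left-out arrays. The files hold no mean spot signal, so normexp (offset 50) used median signals. The labels state no pairing of samples by replicate number, and the main fit used none.

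The members and lists were chosen with earlier results of these data known. Genes are named by a rule on all tested members and on list members past the threshold (up to 8 per list); list genes named without passing were chosen after their values were seen.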

Additional observations from a re-analysis of the deposited data

How the results depend on the processing

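With SB431542 against DMSO, 1344 features were higher and 1913 lower. Without the filter on dim probes 791 were higher, and with each array left out in turn 542 to 1235 were higher and 925 to 1676 lower. Of the germline members, 4 higher and 9 lower, 2 were higher without the filter, 7 with an intensity trend and robust prior, 0 to 3 with an array left out, and 0 at an adjusted p under 0.01; 3 were lower at that threshold and 4 to 9 with an array left out. Of the other germline genes, 2 higher and 9 lower, 4 were higher under normexp and 1 to 3 with an array left out, while 5 were lower without the filter and 3 to 7 with an array left out. Of the repressors, 3 lower, 0 were lower without the filter, 1 with every probe on its own and 0 to 2 with an array left out. Of the primordial germ cell list, 2 lower, 1 was lower in the authors' deposited table, 1 with every probe on its own and 0 to 2 with an array left out. The changes of Nanos1 and Hormad2, neither past the threshold, turned to -0.029 and 0.025 without SB431542 replicate 3, which is also the fit with slide as a block; with an array left out they ran from -0.029 to 0.11 and from -0.17 to 0.025. Leaving out an array leaves fewer samples; the cause of the other differences was not tested. Replicate numbers were shared by the groups, and samples with the same number deviated together at correlations of 0.0018, 0.072 and -0.058. These values cannot show whether samples with the same number shared a culture. The labels do not say so, and the main fit used no pairing. With a replicate block 545 features were higher and 1022 lower, and 0 members higher and 5 lower. In that fit 3 other germline genes, 0 repressors and 0 of the primordial germ cell list were lower. With 3 arrays a group the smallest exact permutation p is 0.1, and probes not well above background give only a bound.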
